A study of Homo sapiens with 17 samples.

Results

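The ADAR1 knockdown (KD) experiment in H23 was described gene by gene from 2 of the 17 dsRNA immunoprecipitation sequencing (RIP-seq) libraries of the study, 1 control library and 1 KD library. H23 is a human lung adenocarcinoma cell line, a form of non-small cell lung carcinoma (NSCLC). The KD library is labeled as H23 with ADAR1 KD, and siRNA was the agent per the study's text. The control is labeled only as a further H23 replicate and was matched to the KD by the name of its alignment. That name does not give the siRNA, and the study describes a nontargeting siRNA (siNTC) control in its account of the KD. For comparison, 4 further H23 libraries whose labels carry no treatment were used, numbered as replicates 1 to 4. The alignment name of replicate 4 pairs it with the H23 library labeled IMT1, a treated library that was left out here. RNA bound by J2, an antibody against dsRNA, was polyadenylated in vitro, amplified as PCR-cDNA, and sequenced as long nanopore reads in all 6 libraries. Row values below are for 38 of the 99 annotated rows of the count table, unless gene rows are named. These 38 hold the coding sequences (CDS, 13 rows), the rRNAs (2 rows), the tRNAs (22 rows), and the D-loop (1 row). Counts of reads that cross gene borders also use the gene and exon rows. With 1 library per condition no test was possible, and the range of the 4 untreated libraries is given as the measure of spread. Intervals are 95% and cover counting error only.

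Both strands of the circular mitochondrial genome are transcribed almost in full from promoters in the noncoding region that holds the D-loop, and the long precursors are cut at the tRNAs that lie between the other genes. The heavy-strand precursor carries both rRNAs, most of the coding sequences, and most of the tRNAs, whereas the light-strand precursor carries ND6 and a minority of the tRNAs. Where the complementary transcripts are not degraded they can pair as mitochondrial dsRNA (mtdsRNA). ADAR1 is a nuclear-encoded enzyme that binds dsRNA and converts adenosine to inosine. Only mitochondrial rows were counted, so that ADAR1 RNA and the strength of the KD were not measured here, and editing was not analyzed here.

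The KD library held fewer reads and a smaller mitochondrial share than its control. It had 37113 total reads, of which 4100 mapped to the mitochondrial chromosome (ChrMT), and the control had 221155, of which 104437 mapped. The mapped share was 11.0% in the KD library (Wilson interval 10.7% to 11.4%) and 47.2% in the control (47.0% to 47.4%). In untreated replicates 1, 2, 3, and 4 it was 11.0%, 17.0%, 24.4%, and 30.5%. The KD value thus lay at the low end of the untreated range, while the control lay above all 16 other libraries of the study, the next of which had 30.5%. The log2 ratio of KD over control was -2.10, and it was 0.0031 with untreated replicate 1 in place of the control. At the depth of the KD library, the floor of 3 reads set for a row with 0 reads was a share of 0.0732% of the mapped reads. The exact 95% interval of 0 reads reached 0.0899%. Of the 38 rows, 22 had at least 10 reads.

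**Figure D1:**
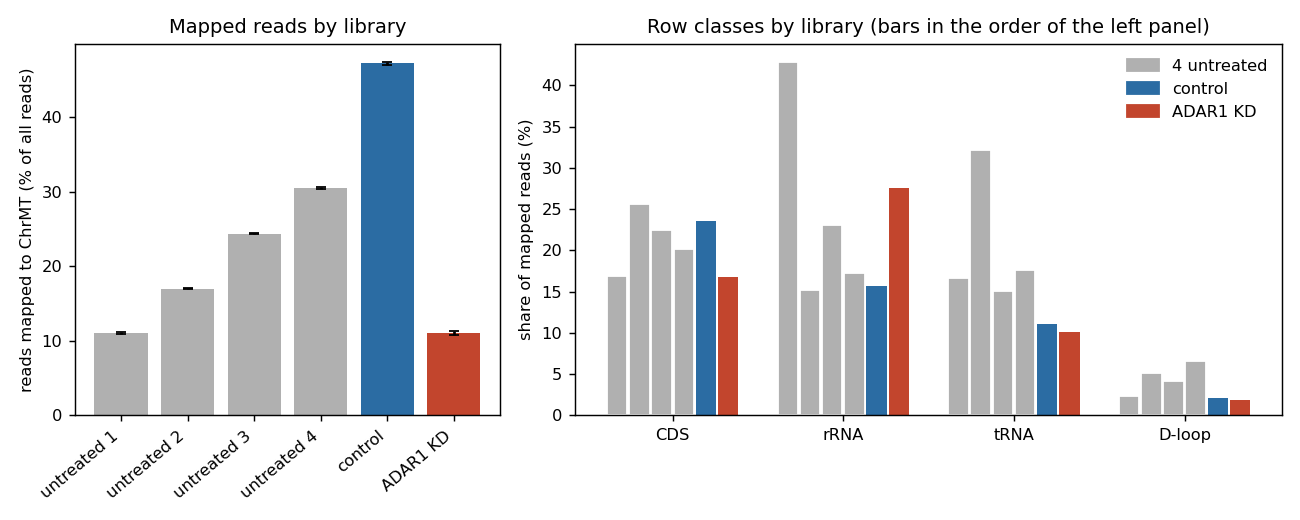
Reads mapped to ChrMT as a percentage of all reads (left, Wilson 95% intervals) and share of mapped reads on CDS, rRNA, tRNA, and D-loop rows (right, %) in 4 untreated H23 libraries (gray), the control (blue), and the ADAR1 KD (red). The control bar at 47.2% stands above all others on the left, and the KD rRNA bar at 27.5% lies inside the untreated range of 15.2% to 42.9% on the right.

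Scaled to all reads, most mitochondrial rows were lower in the KD library. As reads per 1000000 total reads (RPM), 34 of the 38 rows (89.5%) were at least 2-fold lower and none (0.0%) was at least 2-fold higher. CDS rows together had 18538 RPM in the KD library and 111130 in the control, 5.99-fold lower. The corresponding values were 30421 and 74048 for the rRNA rows (2.43-fold lower), 11128 and 51995 for the tRNA rows (4.67-fold lower), and 2021 and 10020 for the D-loop row (4.96-fold lower). The rRNAs therefore differed least and the CDS most. Against the untreated libraries, 22 rows of the KD library (57.9%) were below all 4 and none (0.0%) was above. In the control, 5 rows (13.2%) were below and 21 (55.3%) were above. These positions compare point values, without counting error. The control thus stood high and the KD library low on this scale beside the untreated libraries. The RPM of a row is its share of mapped reads scaled by the mapped share of the library. The log2 ratio of -2.10 in mapped share therefore enters every row alike. COX1, for example, had a ratio of 1.03 as a share of mapped reads and was 4.16-fold lower in RPM. The 34 rows lower in RPM are thus not separate differences of single rows.

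On the share of mapped reads, which takes out the mapped share, the rRNAs were higher in the KD library and the CDS lower. The rRNA rows held 27.5% of the mapped reads in the KD library (1129 reads) and 15.7% in the control (16376 reads), a ratio of 1.76 (exact conditional interval 1.65 to 1.87). The CDS rows held 16.8% (688 reads) and 23.5% (24577 reads), a ratio of 0.71 (0.66 to 0.77). The tRNA rows held 10.1% and 11.0%, with a ratio of 0.91 whose interval of 0.83 to 1.01 included 1. Untreated libraries ranged from 15.2% to 42.9% for rRNA and from 16.9% to 25.6% for CDS, so that the rRNA share of the KD library was within their range and the CDS share was just below its lowest value. Row by row, 8 of the 38 shares (21.1%) were at least 2-fold lower in the KD library and 2 (5.26%) at least 2-fold higher. Those lower were 3 of 13 CDS (ATP6, ND3, and ND5) and 5 of 22 tRNAs (TRNQ, TRNR, TRNH, TRNS2, and TRNP), and those higher were RNR2 and TRNF. A row needed 10 reads in only 1 of the libraries, and many rows reached this only in the deeper control. Of the 22 rows with 10 reads in both, 3 were lower (ND5, TRNQ, and TRNP) and 1 was higher (RNR2). TRNA, TRNC, and TRNL2 could not be called lower, because their control shares were under the 3-read floor of the KD library. The median log2 ratio over the 35 rows with reads in both libraries was -0.47, against -0.55 for the CDS and -0.03 for the tRNAs.

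**Figure D2:**
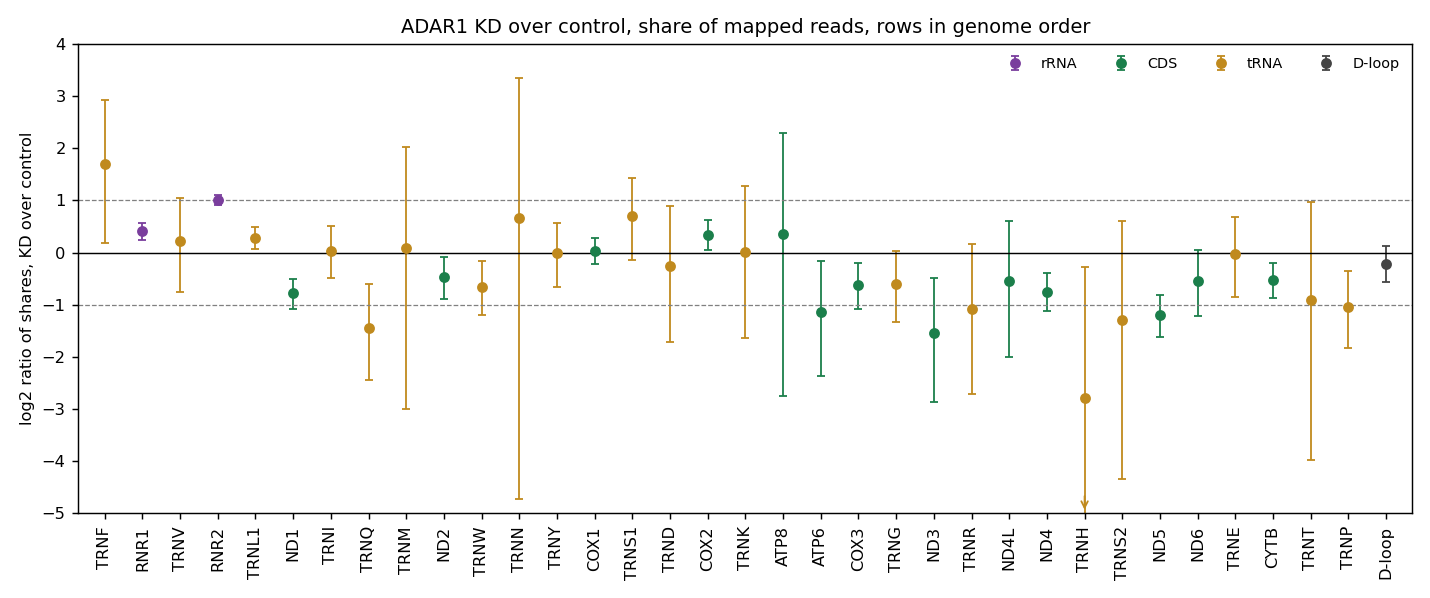
Log2 ratio of the share of mapped reads, ADAR1 KD over control, for the 35 rows with reads in both libraries, in genome order and colored by class, with 95% counting intervals; dashed lines mark 2-fold, and an arrow marks an interval that runs off the axis. RNR2 at 1.01 has the narrowest interval, ND3 and ND5 lie below the lower dashed line, and several tRNAs with few reads have the widest intervals.

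RNR2, the 16S rRNA of the large mitochondrial ribosomal subunit (positions 1671 to 3229 of the mitochondrial reference, plus strand), had the most reads of any row in the KD library. It held 19.6% of the mapped reads there (805 reads) and 9.76% in the control (10189 reads), a log2 ratio of 1.01. In untreated replicates 1 to 4 it held 18.2%, 6.37%, 10.2%, and 5.91%. The KD library was thus above all 4, with replicate 1 close to it, and the control was within them. On gene rows, which leave out reads that touch a second gene, the KD share of 15.4% was within the untreated range of 4.87% to 16.0%, and in RPM it was within the range too. RNR1, the 12S rRNA of the small subunit (positions 648 to 1601, plus strand), held 7.90% in the KD library and 5.92% in the control, a log2 ratio of 0.42. The untreated libraries held 24.7%, 8.79%, 12.9%, and 11.3%, so that both libraries of the KD experiment were below every untreated library.

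The balance of the rRNAs separated both libraries of the KD experiment from the 4 untreated libraries. Reads on RNR2 per read on RNR1 numbered 2.48 in the KD library (exact interval 2.18 to 2.84) and 1.65 in the control (1.60 to 1.70). In untreated replicates 1 to 4 they numbered 0.736, 0.724, 0.788, and 0.522. All 4 untreated libraries were below 1 and both libraries of the experiment above it. The KD value was 1.51 times that of the control (counting interval 1.32 to 1.72). Per kilobase of row and per 1000000 total reads, RNR2 and RNR1 were at almost the same level in the control (29552 and 29325), RNR2 was the higher in the KD library (13913 and 9151), and RNR1 was the higher in all 4 untreated libraries.

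The nested rows of the table show which reads ran across gene borders. Gene rows hold reads on a single gene, because reads touching a second gene were left out, whereas the CDS, rRNA, and tRNA rows leave out only reads that touch a second row of their own class. This was inferred from the table, in which no gene row of the 6 libraries exceeded its class row and the exon and gene rows of both rRNAs were equal in all 12 values. The difference between a class row and its gene row then counts reads that also touched a gene of another class. TRNY, a minus-strand tRNA whose only neighbor other than a tRNA is the plus-strand COX1, lost 539 of 617 reads in this way in the control. Reads were therefore assigned without regard to strand, and the strand of a row below is that of the annotated gene, not of the reads.

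TRNL1, the leucine tRNA between RNR2 and ND1 (positions 3230 to 3304, plus strand), had the most reads of any tRNA in both libraries, and almost none of them were reads of TRNL1 alone. Of its 197 reads in the KD library, 170 (86.3%, Wilson interval 80.8% to 90.4%) also overlapped an rRNA, 25 reached ND1 without an rRNA, and 2 lay on TRNL1 only. Of 4118 reads in the control, 1958 (47.5%) also overlapped an rRNA, 2128 reached ND1 without an rRNA, and 32 lay on TRNL1 only. The difference was 38.7 percentage points (interval 33.0 to 43.1). As a share of mapped reads, the reads with an rRNA made up 4.15% in the KD library and 1.87% in the control, a ratio of 2.21 (1.88 to 2.59). The reads that reached ND1 without an rRNA made up 0.61% and 2.04%, a ratio of 0.30 (0.19 to 0.44). By share of mapped reads, the KD library therefore had more of the junction with RNR2 and less of the junction with ND1 than the control. RNR2 reads that also touched a tRNA had a ratio of 2.13 (1.82 to 2.49), close to 1.98 (1.82 to 2.15) for RNR2 reads on no other gene. They were 21.5% of the RNR2 reads in the KD library and 20.3% in the control, 1.2 percentage points apart (-1.6 to 4.3). The part of RNR2 reads that crossed into a tRNA was thus similar in both libraries. For the TRNL1 reads with an rRNA the KD share was above the untreated range of 0.937% to 1.88%. For the TRNL1 reads that reached ND1 without an rRNA, both libraries were within the wide range of 0.104% to 6.70%. Among the untreated libraries the percentage of TRNL1 reads that overlapped an rRNA was 83.0%, 11.9%, 29.0%, and 40.1%, with the KD library above them and replicate 1 near it.

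**Figure D3:**
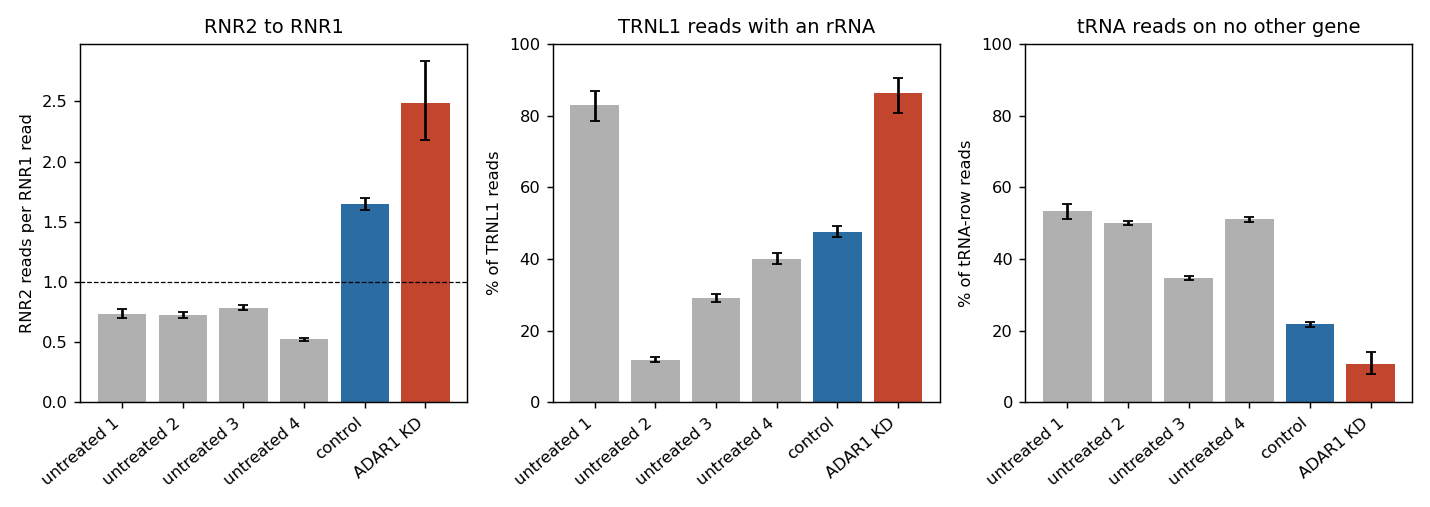
RNR2 reads per RNR1 read (left, dashed line at 1), percentage of TRNL1 reads that also overlap an rRNA (middle), and percentage of tRNA-row reads on no other gene (right) in each H23 library, with 95% counting intervals. The KD and control bars lie on the same side of all 4 untreated bars on the left and on the right, at 2.48 and 1.65 and at 10.7% and 21.8%, and the KD bar in the middle is at 86.3%.

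Complex I subunits of the respiratory chain had lower shares in the KD library in 7 of 7 rows, beside 10 of 13 CDS rows and 25 of all 38 rows. Together they held 7.56% of the mapped reads in the KD library and 13.3% in the control, a ratio of 0.57 (0.51 to 0.64), with untreated libraries between 6.56% and 13.7%. ND5, a proton-pumping subunit, held 1.29% (53 reads) against 2.97% (3099 reads), a ratio of 0.44 (0.33 to 0.57). The untreated libraries held 0.949%, 1.41%, 2.81%, and 1.74% on ND5, so that the control was above all 4 and the KD library within them. ND3 held 0.171% (7 reads) against 0.497% (519 reads), a log2 ratio of -1.54, and was below the untreated range of 0.299% to 0.571%. ND1 had a ratio of 0.58 (0.47 to 0.71), ND4 of 0.59 (0.46 to 0.76), and ND2 of 0.72 (0.54 to 0.95), and all 3 intervals ended below 1. ND6, the CDS annotated on the minus strand, held 0.561% (23 reads) against 0.818% (854 reads), a ratio of 0.69 whose interval of 0.43 to 1.04 included 1, as did that of ND4L, with 6 reads in the KD library.

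The complex IV subunits differed from complex I in that their summed share was nearly equal in both libraries, 7.07% and 7.03%, a ratio of 1.01 (0.89 to 1.13). COX1, the catalytic core subunit of cytochrome c oxidase, held 3.44% (141 reads) against 3.35% (3494 reads), and the untreated libraries held 2.86%, 2.25%, 4.30%, and 4.59%. Reads of COX1 that also overlapped a tRNA were 61.7% of its reads in the KD library and 44.7% in the control, 17.0 points apart (8.6 to 24.8), with untreated libraries between 39.5% and 65.3%. COX2 was at 2.54% and 2.00%, a ratio of 1.27 (1.03 to 1.55), and COX3 at 1.10% and 1.69%, a ratio of 0.65 (0.47 to 0.87). On COX3 the control exceeded the untreated range of 0.787% to 1.17%, and the KD library was inside it. The subunits of this complex thus went in different directions, and their sum hides this.

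CYTB, the complex III subunit cytochrome b, held 1.90% in the KD library (78 reads) and 2.75% in the control (2875 reads), a ratio of 0.69 (0.54 to 0.87). The untreated libraries held 3.52%, 6.46%, 2.50%, and 2.53%, all above the KD library. Of complex V, ATP synthase, ATP6 held 0.195% (8 reads) against 0.431% (450 reads), a ratio of 0.45 (0.19 to 0.90), with untreated libraries in the narrow range of 0.326% to 0.370% between the control and the KD library. ATP8 had only 2 reads in the KD library and 40 in the control, which gave a ratio of 1.27 with an interval of 0.15 to 4.91. ATP8 and ATP6 overlap, so that reads on both were assigned to neither row.

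The plus-strand coding sequences were also summed by position, before and after the middle of the genome, a split chosen after the values were seen. ND1, ND2, COX1, and COX2 together held 9.76% of the mapped reads in the KD library and 11.4% in the control, a ratio of 0.85 (0.77 to 0.94). The 8 coding sequences from ATP8 to CYTB held 6.46% and 11.3%, a ratio of 0.57 (0.50 to 0.65), and 7 of these 8 were lower in the KD library, beside the 10 of 13 CDS rows and 25 of 38 rows given above. Single rows did not follow the split, since ND1 in the first set had a lower ratio than ND4, COX3, ND4L, and CYTB in the second. The second set was below its untreated range of 7.96% to 12.2%, and the first set was within 8.73% to 13.0%.

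The 21 tRNA rows other than TRNL1 together held 5.27% of the mapped reads in the KD library and 7.07% in the control, both below the untreated range of 10.6% to 24.2%. The 14 plus-strand tRNAs held 8.00% of the mapped reads in the KD library and 8.16% in the control, within the untreated range of 5.90% to 17.3%. The 8 minus-strand tRNAs held 2.07% and 2.85%, a ratio of 0.73 (0.58 to 0.90), and both values were below the untreated range of 6.30% to 14.8%. TRNP and TRNE are the minus-strand tRNAs for proline and glutamate. TRNP held 0.415% (17 reads) in the KD library and 0.850% in the control, against 2.60%, 5.38%, 3.07%, and 5.67% in the untreated libraries. TRNE held 0.390% and 0.397%, against 3.19%, 6.16%, 0.859%, and 0.974%. Both libraries were thus below all 4 untreated values on both rows. TRNI, the plus-strand isoleucine tRNA, was the exception above the range in both libraries, at 0.878% and 0.858% against 0.460% to 0.812%. Its 36 KD reads gave an interval of 0.616% to 1.21%, which reached into that range. On gene rows the KD share of TRNI (0.0488%) was within the untreated range of 0.0297% to 0.111%, and the control share (0.0220%) was below it.

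The largest differences between KD and control among the tRNAs rested on few reads. TRNH, the histidine tRNA, had 1 read in the KD library and 175 in the control, a share ratio of 0.15 with an interval whose upper end was 0.82. TRNS2 had 2 reads against 124, or 0.0488% against 0.119%, a log2 ratio of -1.28 (-4.34 to 0.60), and both were below the untreated range of 0.184% to 2.31%. TRNR had 5 reads against 269. The intervals of TRNS2 and TRNR included equal shares. TRNF, the phenylalanine tRNA that opens the heavy-strand precursor next to RNR1, had 6 reads against 47, a log2 ratio of 1.70 (interval 0.18 to 2.93). Its KD share of 0.146% was within the untreated range of 0.0873% to 0.464%, and its control share of 0.0450% was below that range. TRNS1 had 16 reads against 252, or 0.390% against 0.241%, a log2 ratio of 0.69 (-0.14 to 1.42), with untreated libraries between 0.262% and 0.603%. TRNN had 1 read against 16, or 0.0244% against 0.0153%, a log2 ratio of 0.67 (-4.72 to 3.36), and both were below the untreated range of 0.0623% to 0.675%. TRNQ, for glutamine, had the largest difference among tRNAs with at least 10 reads in both libraries, 0.268% (11 reads) against 0.730% (762 reads), a log2 ratio of -1.44 (-2.45 to -0.60). Its KD share was below the untreated range of 0.548% to 1.98% and its control share inside it. TRNA, TRNC, and TRNL2 had 0 reads in the KD library and 15, 15, and 35 in the control. At the control share these rows would have had 0.59, 0.59, and 1.37 reads in the KD library, so that a difference was not detectable at this depth. In RPM, TRNL2 was at least 1.96-fold lower at the limit of 3 reads.

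Reads on a tRNA and no other gene were a smaller part of the tRNA rows in the KD experiment than in the untreated libraries. They made up 10.7% of the tRNA-row reads in the KD library (44 of 413) and 21.8% in the control (2502 of 11499), 11.1 percentage points apart (7.7 to 13.8). In the untreated libraries they made up 53.3%, 50.0%, 34.7%, and 51.0%. On gene rows, which hold only such reads, 15 of the 22 tRNAs of the KD library and 17 of the control were below all 4 untreated libraries, 14 of them in both. Over all 37 gene rows the counts were 21, 19, and 16. These positions compare point values, and the 22 tRNA gene rows of the KD library held only 44 reads. Most counts on the tRNA rows of both libraries were therefore parts of longer reads that crossed a gene border, not reads confined to a tRNA.

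**Figure D4:**
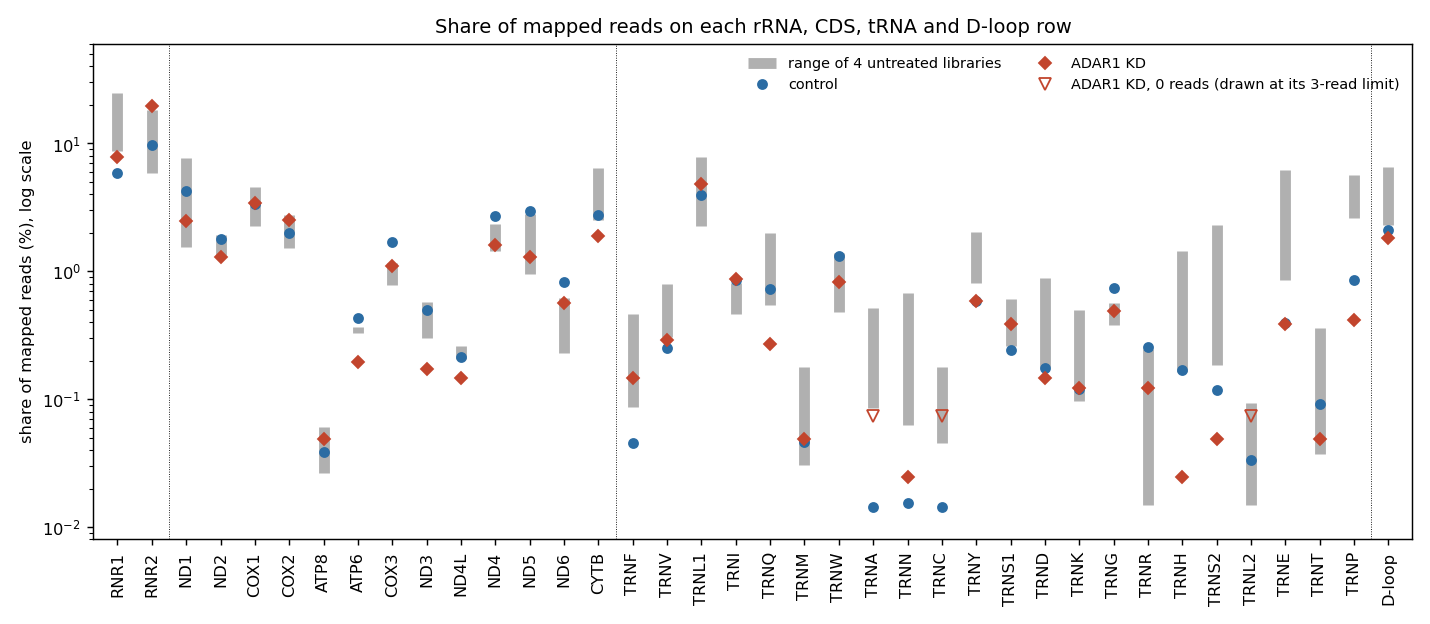
Share of mapped reads (%, log axis) on each rRNA, CDS, tRNA, and D-loop row in the control (blue circles) and the ADAR1 KD (red diamonds), with gray bars for the range of the 4 untreated H23 libraries; open triangles mark rows with 0 KD reads at the 3-read limit of 0.0732%. RNR2 in the KD library is above its gray bar, and RNR1, TRNP, TRNE, TRNY, and the D-loop lie below their bars in both libraries.

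The D-loop row, annotated over the noncoding control region, held 1.83% of the mapped reads in the KD library (75 reads). It held 2.12% in the control (2216 reads), a ratio of 0.86 (0.68 to 1.09). The untreated libraries held 2.32%, 5.15%, 4.12%, and 6.53%, so that both libraries of the experiment were below all 4. The row is annotated on the minus strand from position 16024 through the end of the sequence. Only its 546 bases before that end can be matched to the linear reference, so that its counts cover only this part of the noncoding region.

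Against the untreated libraries, the rows of the KD library and of its control shared many positions. By share of mapped reads, 19 of the 38 rows of the KD library (50.0%) were below all 4 untreated libraries and 2 (5.26%), RNR2 and TRNI, were above. These are positions of point values at 4100 mapped reads. The KD share intervals of ND2, ATP6, ND3, ND4L, TRNV, TRNA, TRNN, TRNC, TRNY, TRND, and TRNL2 reached into the untreated range from below. That of TRNI reached into it from above. For TRNC and TRNL2, with 0 KD reads, the lowest untreated share was under the 3-read limit of 0.0732%. Of the control, 13 rows (34.2%) were below and 8 (21.1%) above. The 11 rows below in both were RNR1, the D-loop, and 9 tRNAs, which made up 57.9% of the low rows of the KD library and 84.6% of those of the control. No CDS was among them. All 37 gene rows together held 34.9% of the mapped reads in the KD library and 31.9% in the control. Both were below the untreated range of 36.7% to 60.3%, and the part of this difference in the shared low rows was not tested. The CDS below the range only in the KD library were ND2, ATP6, ND3, ND4L, and CYTB, and the control was above the range on ATP6, COX3, ND4, ND5, and ND6. For ATP6 alone the KD library and the control were on opposite sides of all 4 untreated libraries. Its 8 KD reads gave a share interval of 0.0843% to 0.384%, however. This interval covers the untreated range of 0.326% to 0.370%, so that the KD side was within counting error.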

How the data were processed

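J2 RIP-seq libraries of H23 were analyzed, 1 control and 1 ADAR1 KD library, beside 4 untreated libraries. The authors mapped nanopore reads to ChrMT alone with minimap2 2.17-r941 and deposited mapped and total read counts made with SAMtools 1.10. They also deposited raw counts from featureCounts for each annotated row (long-read mode, minimum overlap of 6 bases, no multi-mapping reads). The methods text states in one place that reads could be assigned to overlapping features and in another that overlapping reads were excluded. No gene row of the H23 libraries held more reads than its CDS, rRNA, or tRNA row, and most held fewer, as under the latter. No nuclear sequence was in the reference, so that reads of nuclear copies of ChrMT could also map. The authors also deposited the percent of mapped reads, which was recomputed from the counts. Whether supplementary alignments count as mapped reads is not given in the sources used here.

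Shares of mapped reads, reads per 1000000 total reads, and ratios of KD over control were computed in Python 3.11.15 with pandas 2.3.3, numpy 2.4.6, and scipy 1.17.1. Exact conditional binomial intervals (95%) were used for ratios, exact Clopper-Pearson and Wilson intervals for shares, Newcombe intervals for differences of shares, and the delta method on the log scale for the change in the RNR2 to RNR1 ratio. The ratio intervals were tested on binomial counts simulated with known fold changes. Such counts follow the model of the intervals, so this checks the computation and not the spread between libraries. Intervals cover counting error only and leave out the spread between libraries, because each condition had 1 library. They treat reads as independent, which PCR reads are not, so that they can be too narrow even for counting error. A 2-fold call needed 10 reads in at least 1 library, and 0 reads entered at a floor of 3. Total reads were 37113 in the KD library, 221155 in the control, and 122304 to 601633 in the untreated libraries. Because 1 read can lie on rows of different classes, shares were not added across classes.

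The rows to describe, the gene groups, and the alternatives were chosen with earlier results of these data known. Full values were given for RNR1, RNR2, and the D-loop, for ND5, ND6, COX1, CYTB, and COX3, and for the 5 largest ratios each way among rows with at least 10 reads in 1 library. Other genes were named by role. Alternatives changed the denominator, the row kind, the control library, the count minimum, the fold limit, the tRNA rows, and the untreated libraries of the range.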

Additional observations from a re-analysis of the deposited data

Results flagged for a closer look

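Among the 4 untreated H23 libraries, 4 of 42 measures had a single library far from the other 3, a gap that chance gives in about 1 in 20 groups. Untreated replicate 2 held 32.1% of its mapped reads on tRNA rows, and the other libraries held 15.0% to 17.6%. The same replicate held 0.495% on TRNK, against 0.0963% to 0.105%, and 1.45% on TRNH, against 0.164% to 0.200%. Untreated replicate 1 held 0.482% on TRNW, against 1.30% to 1.40%. The KD library had 0.122% on TRNK and 0.0244% on TRNH. Without replicate 2, the KD library was above the range on 5 rows in place of 2 (RNR2, TRNL1, TRNI, TRNS1, and TRNK), and 19 rows were below it.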

How the results depend on the processing

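Values are log2 ratios of KD over another library unless they are counts of rows, and the cause of a shift was not tested. With untreated replicates 1, 2, 3, and 4 in place of the control, the mapped share gave 0.0031 (turned in sign), -0.62, -1.14, and -1.47, and -1.24 with the mean of the 5 H23 libraries. For rRNA, whose value was 0.81, replicate 1 turned the sign (-0.64), replicates 3 and 4 gave 0.25 and 0.68, the mean gave 0.27, and reads per 1000000 total reads (RPM) turned the sign (-1.28). For CDS (-0.49), replicates 1, 2, and 4 gave -0.012, -0.61, and -0.27, the mean -0.37, and RPM -2.58. For tRNA (-0.13), replicates 1 to 4 gave -0.72, -1.67, -0.58, and -0.81, the mean -0.88, and RPM -2.22. For the D-loop (-0.21), replicates 2 to 4 gave -1.49, -1.17, and -1.84, the mean -1.15, and RPM -2.31. As a share of the counts on CDS, rRNA, tRNA, and D-loop rows, rRNA was at 0.71. As a share of gene-row counts CDS, rRNA, and tRNA were at -0.69, 0.63, and -1.29, and tRNA gene rows as a share of mapped reads at -1.16. The sign was the same for CDS, tRNA, and the D-loop under all alternatives run, of which the gene rows hold no D-loop. The CDS value against replicate 1 (-0.012) was close to equal shares, however. The intervals of the main tRNA value (-0.27 to 0.013) and D-loop value (-0.57 to 0.12) included equal shares.

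Rows at least 2-fold lower numbered 8, and 34 in RPM, 3 with 10 reads in both libraries (ND5, TRNQ, and TRNP), 1 at 4-fold (TRNH), 3 without tRNA rows, and 13 and 17 against untreated replicates 1 and 2. Rows at least 2-fold higher numbered 2. They numbered 0 in RPM, at 4-fold, against replicate 3, and against the mean of the H23 libraries, and 5 by a counting interval past 1. They numbered 1 on gene rows by either denominator (TRNI), with 10 reads in both libraries, without tRNA rows, as a share of class-row counts, and against replicates 2 and 4. Rows below the untreated range numbered 19 to 25 when 1 untreated library was left out, the most without replicate 1, and rows above it 3 to 5, the most without replicate 2. Above the range were 0 rows in RPM and 1 gene row, COX3, with RNR2 then within the range. With 4100 mapped reads, the KD library limits every ratio. No paired analysis was possible because each condition had 1 library.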

Other observations

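Untreated replicate 1 had nearly the same mapped share as the KD library (11.0% in both) and, after it, the fewest total reads of the 6 H23 libraries analyzed. These libraries also had the highest shares of RNR2 (18.2% and 19.6%) and the highest percentages of TRNL1 reads that overlapped an rRNA (83.0% and 86.3%). They differed in RNR1, at 24.7% in replicate 1 and 7.90% in the KD library, and in tRNA-row reads on no other gene, at 53.3% and 10.7%.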
